A study of Arabidopsis thaliana with 36 samples.

Results

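The 6 organelle-type ribosomal protein genes described here are the Arabidopsis thaliana genes whose description in the authors' deposited table contains "30S ribosomal" or "50S ribosomal", out of 33602 genes in the count table. The descriptions call PRPS20 (AT3G15190) the 30S protein S20 of the chloroplast and AT5G24490 a putative 30S protein. They call PSRP5 (AT3G56910) and PSRP6 (AT5G17870) plastid-specific 50S proteins and AT5G16200 a 50S-related protein. AT1G66890 entered only because its description, a chloroplast protein of unknown function, names AT5G16200 as its best match. All 6 are encoded in the nucleus, and all 6 had enough counts to be tested.

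Chloroplasts make part of their own proteins on ribosomes of the bacterial type, with a small 30S and a large 50S subunit. Most proteins of these ribosomes are encoded in the nucleus and imported, and the rest, like the ribosomal RNA, are encoded in the chloroplast. AT5G24490 is known as PSRP1, a relative of bacterial hibernation factors, which bind the small subunit and hold ribosomes inactive. S20 is a core protein of the small subunit, whereas PSRP5 and PSRP6 belong to the few large-subunit proteins found in plastids and not in bacteria.

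The libraries were made from cotyledons (the seed leaves) and hypocotyls (the seedling stem) of Col-0 wild-type seedlings grown for 5 days at 21 °C with 16 h of light per day. From ZT2, a time counted in hours from lights on, seedlings stayed in high R/FR (a high ratio of red to far-red light) or went to low R/FR, which simulates shade from neighbours. Both organs were collected from 50 seedlings per sample at 0 min in high R/FR and after 15, 45, 90 and 180 min in each light. Each of the 18 groups had 2 libraries, and the labels describe 1 plate per sample but record no separate cultures or days, so the p-values measure the spread between samples. Gene counts per library were 24897594 to 45115165 in cotyledon and 23560273 to 34231167 in hypocotyl.

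Levels are given as CPM, counts scaled to 1 common library size with TMM factors, which centre the libraries on each other. Changes are log2 ratios with their SE from edgeR's quasi-likelihood test, and calls were made where the adjusted p (Benjamini-Hochberg, over all genes tested in that comparison) was under 0.05. The organ labels were checked with marker lists of 4 genes each. The summed shoot apex markers stood at 0 to 0.68 CPM in cotyledon, where WUS was at 0 in every library, and at 152 to 417 CPM in hypocotyl. The summed root markers stood at 0 to 0.634 and 1.72 to 17.4 CPM, so transcripts of both lists were present in the hypocotyl libraries. The summed mesophyll markers, RBCS1A and 3 CAB genes with near-identical copies, stood at 74200 to 103000 CPM in cotyledon and 13700 to 24900 CPM in hypocotyl.

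The authors' table (TAIR10) places AT5G24490 at chr5:8365601-8367460 on the plus strand, AT5G16200 at chr5:5289565-5290202 on the minus strand and AT1G66890 at chr1:24957558-24958114 on the plus strand. It places PRPS20 at chr3:5116141-5117615 and PSRP6 at chr5:5907775-5908335 on the plus strand, and PSRP5 at chr3:21069411-21070356 on the minus strand. Upstream sequences are shown for the 3 genes whose level moved most over the series. They come from the RefSeq annotation and genome (TAIR10.1) and end at the base before the RefSeq gene start. Capitals mark CTTATC, which is the I-box GATAAG, a motif known from promoters of light-regulated plant genes, read on the opposite strand. The windows are chr5:8365351-8365600 (plus strand), chr1:24957112-24957361 (plus strand) and, cut where a neighbouring gene begins, chr5:5290507-5290695 (minus strand).
AT5G24490: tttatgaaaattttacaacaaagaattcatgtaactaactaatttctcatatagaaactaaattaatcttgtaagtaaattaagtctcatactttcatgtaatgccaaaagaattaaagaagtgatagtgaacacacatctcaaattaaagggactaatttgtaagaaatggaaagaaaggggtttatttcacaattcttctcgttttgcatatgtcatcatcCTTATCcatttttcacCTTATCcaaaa
AT1G66890: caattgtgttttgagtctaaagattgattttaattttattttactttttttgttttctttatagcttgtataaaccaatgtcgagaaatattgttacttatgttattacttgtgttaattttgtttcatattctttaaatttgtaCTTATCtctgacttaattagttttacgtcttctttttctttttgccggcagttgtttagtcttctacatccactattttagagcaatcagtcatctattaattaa
AT5G16200: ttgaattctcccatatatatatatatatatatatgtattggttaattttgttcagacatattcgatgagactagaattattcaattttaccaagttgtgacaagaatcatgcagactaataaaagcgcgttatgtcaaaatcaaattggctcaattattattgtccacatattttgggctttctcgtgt

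In AT5G24490 the I-box letters occur at 27 to 22 and again at 11 to 6 bases upstream of the gene start. AT1G66890 holds them at 105 to 100 bases upstream, and AT5G16200 holds none in its 250 bases. Over the full 250 bases and on both strands, 4 of the 6 genes hold an I-box, the others being PRPS20 and PSRP6, against 12.29% of 27443 promoters and 7 of 34 promoters of other nuclear genes of the plastid ribosome. The whole window of PRPS20 lies inside the neighbouring gene AT3G15180, so its match is also a match in that gene. The G-box CACGTG, the core bound by many light-signalling factors, was found in PSRP5 alone of the 6 and in 6.49% of all promoters. The PBE-box CATGTG (11.09% of all promoters), the telo-box AAACCCTA (4.49%), the site II element TGGGCC (13.65%, and 10 of the other 34) and the evening element AAAATATCT (2.36%) were in none of the 6. These motifs do not overlap each other in these windows, and a match in letters is no evidence of binding.

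Level separated 4 abundant genes from 2 scarce ones. Per kilobase of exon in high R/FR cotyledon, the median level was 793 CPM for PSRP5, 403 for PRPS20, 221 for PSRP6 and 148 for AT5G24490, against 11.3 for AT1G66890 and 3.64 for AT5G16200. The range of AT5G24490 over the times, 112 to 418 CPM per kilobase, spanned those of PSRP6 (193 to 254) and reached into that of PRPS20 (373 to 447), so these neighbours in the order were not apart. In high R/FR hypocotyl the order was the same, with medians of 249, 114, 93.1, 57.4, 6.6 and 3.83 CPM per kilobase, and the range of PSRP6 (76.9 to 104) met both that of PRPS20 (101 to 124) and that of AT5G24490 (49.5 to 89.4). AT5G16200 rested on 30 to 161 counts per cotyledon library and 75 to 260 per hypocotyl library, and AT5G24490 on 1046 to 14261.

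**Figure D1:**
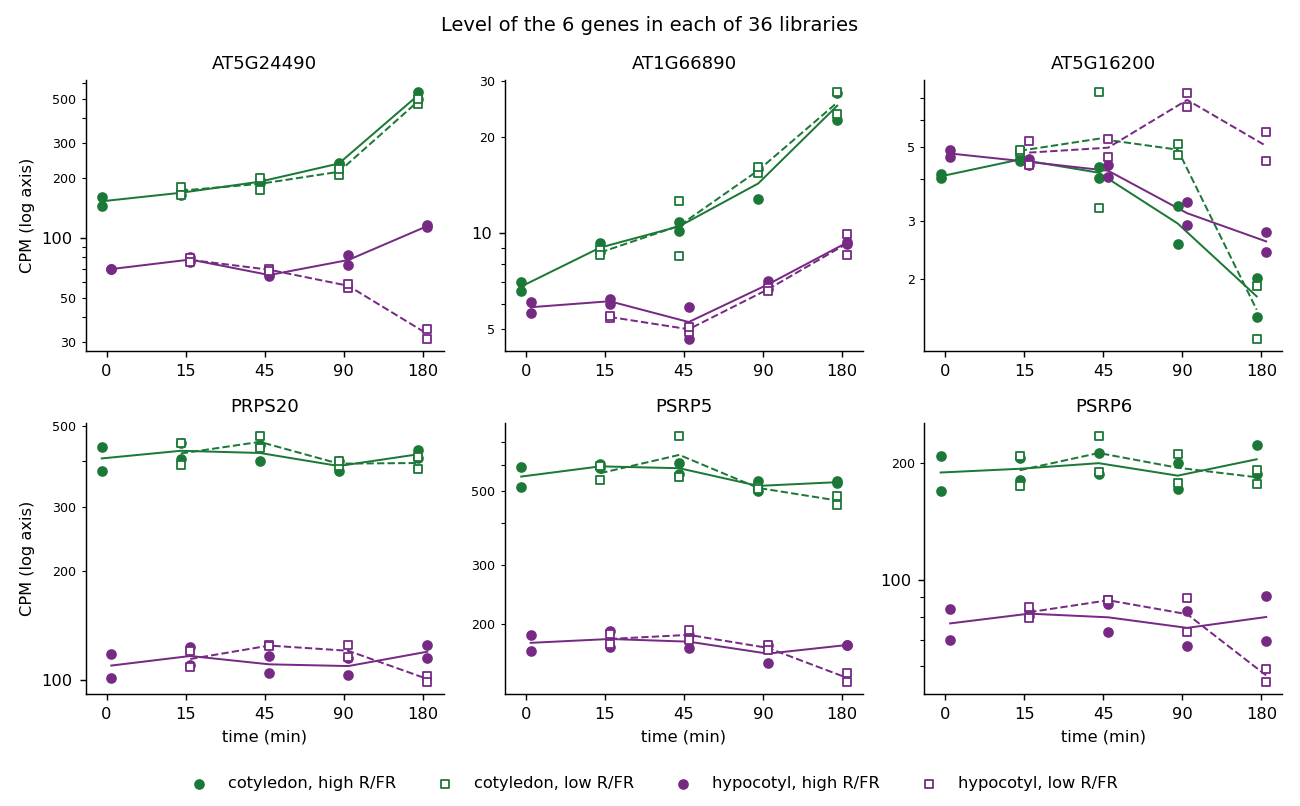
Level of each gene in every library (CPM, log axis) against time in min, with the times equally spaced; green is cotyledon, purple hypocotyl, filled circles high R/FR and open squares low R/FR, and lines join group means of 2 libraries. AT5G24490 climbed to between 473.9 and 542.4 CPM in cotyledon in both lights but parted by light in hypocotyl, where PRPS20, PSRP5 and PSRP6 lay far below their cotyledon levels.

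AT5G24490, the hibernation factor relative, changed most of the 6 in low R/FR, and did so in the hypocotyl. At 180 min it stood at 116 and 114 CPM in the high R/FR hypocotyls and at 34.8 and 31.2 CPM in the low R/FR hypocotyls. The lights did not overlap, and both low R/FR libraries also lay below the 69.7 and 70 CPM of the 0 min hypocotyls. The change was -1.80 ± 0.08 (adjusted p = 2e-17), which is 3.48-fold lower. At 90 min the levels were 82 and 73.1 CPM in high R/FR against 56 and 59.1 CPM in low R/FR, again without overlap, and the change was -0.43 ± 0.08 (adjusted p = 4.84e-05). At 15 min the lights overlapped, at 75.8 to 80.2 CPM. At 45 min low R/FR, at 69.9 and 68.7 CPM, lay just above high R/FR, at 64.2 and 66.2 CPM (change 0.09 ± 0.08, adjusted p = 0.811).

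In cotyledon the lights lay next to each other. At 180 min its levels were 500 and 542 CPM in high R/FR against 474 and 498 CPM in low R/FR, and the change of -0.10 ± 0.08 missed the threshold (adjusted p = 0.402). The difference between the organs' responses was itself tested and came to -1.70 ± 0.11 at 180 min (adjusted p = 3.4e-13). At 90 min it was -0.29 ± 0.11 with an adjusted p of 0.0552, and it passed the threshold in 7 alternative settings, among them DESeq2 (adjusted p = 0.0176) and limma-voom (0.0492); over all alternatives, leaving out libraries included, the adjusted p ran from 0.00575 to 0.202.

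AT5G24490 shares 159 exonic bases at its end with AT5G24500 on the opposite strand, and the strand setting of the authors' counting is not given in the sources used here. AT5G24500 stood at 16.5 to 17.1 CPM in high R/FR hypocotyl at 180 min and at 25.6 to 30.6 CPM in low R/FR, a rise of 0.74 ± 0.10 (adjusted p = 3.37e-07), opposite to AT5G24490 and at a lower level. PRPS20 shares exonic bases with 3 other annotated genes and PSRP5 with 2, so their counts too may miss or hold reads of a neighbour.

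AT5G16200, the 50S-related gene, moved the other way. In hypocotyl at 90 min it had 2.91 and 3.4 CPM in high R/FR against 6.58 and 7.23 CPM in low R/FR, and at 180 min 2.42 and 2.78 against 4.53 and 5.52 CPM. The lights did not overlap at either time. It rose by 1.13 ± 0.20 (adjusted p = 4.55e-05) and 0.94 ± 0.22 (adjusted p = 0.000351). In cotyledon at 90 min it stood at 3.33 and 2.56 CPM in high and 5.08 and 4.72 CPM in low R/FR, and it rose by 0.75 ± 0.22 (adjusted p = 0.0255). That cotyledon call was lost without high R/FR replicate 2 (adjusted p = 0.323) and without low R/FR replicate 1 (0.17) or 2 (0.0851).

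At 180 min the cotyledon levels of AT5G16200 overlapped, at 1.54 and 2.02 CPM in high and 1.92 and 1.33 CPM in low R/FR (change -0.14 ± 0.29, adjusted p = 0.809). The responses of the organs differed by 1.08 ± 0.36 at 180 min (adjusted p = 0.0147). This difference missed the threshold without any 1 of 4 libraries: hypocotyl high R/FR replicate 3 (0.86, adjusted p = 0.0788) or low R/FR replicate 3 (0.80, 0.0937), and replicate 2 of cotyledon in high (0.87, 0.117) or low R/FR (0.85, 0.0913). With the plate replicate block, a term for time, light and replicate number shared by the organs, it was 0.78 (adjusted p = 0.303). At 180 min the organs shared only 1 replicate number in each light, so the value with that block rests on 1 pair of libraries per light. At 45 min the low R/FR cotyledon replicate 2 stood at 7.29 CPM and replicate 1 at 3.27 CPM, on either side of the high R/FR libraries at 4.03 and 4.33 CPM.

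AT1G66890, whose description names AT5G16200 as its best match, gave other values. In hypocotyl at 180 min AT1G66890 had 9.39 and 9.26 CPM in high R/FR against 8.56 and 9.96 CPM in low R/FR, which overlapped, and its change was -0.01 ± 0.14 (adjusted p = 0.954). The coding sequences of the pair were 69.5% identical over 430 aligned bases, with no identical run longer than 12 bases. Within 1 library the ratio of the pair does not depend on scaling. There were 25.8 and 30 AT5G16200 counts per 100 AT1G66890 counts in the high R/FR hypocotyls at 180 min and 53 and 55.4 in the low R/FR ones.

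Transcripts of the 3 core and plastid-specific proteins fell in the hypocotyl at 180 min. In cotyledon at that time PRPS20, PSRP5 and PSRP6 changed in the same direction, by -0.08, -0.18 and -0.15, and none was called. The differences between the organs' responses, at -0.17, -0.14 and -0.35, also missed the threshold (edgeR adjusted p = 0.317, 0.428 and 0.207). In hypocotyl PRPS20 stood at 125 and 115 CPM in high and 103 and 98.7 CPM in low R/FR, and fell by 0.25 ± 0.09 on the log2 scale (adjusted p = 0.0226). PSRP5 stood at 173 CPM in both high R/FR libraries and at 134 and 142 CPM in low R/FR, and fell by 0.33 ± 0.10 (adjusted p = 0.00489). PSRP6 stood at 90.9 and 69.3 CPM in high and 58.8 and 54.4 CPM in low R/FR, and fell by 0.50 ± 0.16 (adjusted p = 0.00711). None of the 3 overlapped between the lights, but the high R/FR libraries of PSRP6 lay far apart, and without replicate 3 its fall missed the threshold (-0.39, adjusted p = 0.0641).

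In hypocotyl at 180 min 4 of the 6 genes were thus called lower, where 32.6% of all tested genes were, and 1 was called higher, where 31.2% were. At 90 min 1 was called lower (18.5% of all genes) and 1 higher (19.1%). In cotyledon the 1 call at 90 min stood against 4.41% of all genes called higher. In cotyledon at 15, 45 and 180 min and in hypocotyl at 15 and 45 min edgeR called 0 of the 6, and 0 had an unadjusted p under 0.05; DESeq2 and limma-voom also called 0. The share of all genes called in either direction was 0.219, 3.62 and 19.5% at these cotyledon times and 0.179 and 3.31% at these hypocotyl times. Of the differences between organs, 1 of 6 was called lower at 180 min (22.8% of all genes) and 1 higher (23.7%). At 15, 45 and 90 min edgeR called 0 of these differences (0.0149, 0.696 and 21.4% of all genes), with 0, 0 and 1 at an unadjusted p under 0.05, and DESeq2 and limma-voom called 0, 0 and 1.

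**Figure D2:**
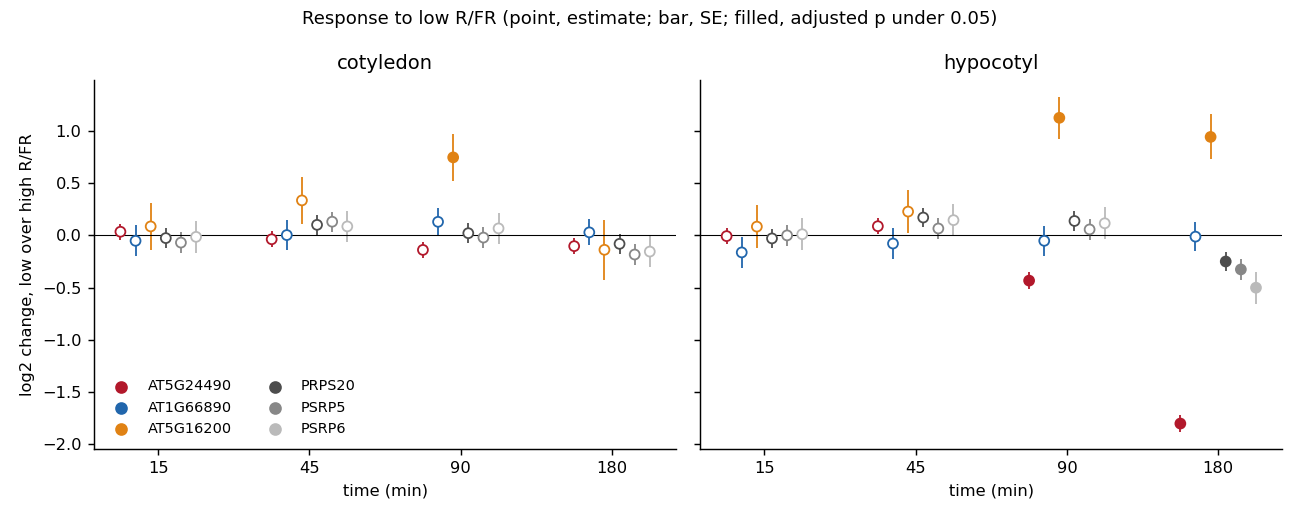
Log2 change of low over high R/FR for each gene against time in min, cotyledon left and hypocotyl right; points are estimates from 2 libraries per group, bars are SE and filled points passed an adjusted p of 0.05. Filled points lie at 90 min in cotyledon and at 90 and 180 min in hypocotyl, where AT5G24490 reaches -1.80 and AT5G16200 lies at 1.13 and 0.94.

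Other genes of chloroplast translation gave the frame for these changes. A list of 34 other nuclear genes of the plastid ribosome was added after the values of the 6 genes had been seen. In hypocotyl at 180 min 31 of the 34 fell and 0 rose, with a median change of -0.37 and a range of -0.62 to -0.05, against a median of -0.04 over all genes. PRPS20, PSRP5 and PSRP6 lay inside that range, AT5G24490 below all 34, and AT1G66890 and AT5G16200 above all 34. In cotyledon at 180 min edgeR called 0 of the 34 (median -0.14), with 7 at an unadjusted p under 0.05. Whether the 6 genes differ from the 34 was not tested.

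Of the other pathway lists in hypocotyl at 180 min, all 8 translation factors of the plastid other than AT5G24490 fell, with a median of -0.72. They include HCF109, a peptide release factor (-1.22 ± 0.07), FUG1, an initiation factor (-0.88 ± 0.07), and PETS, an elongation factor Ts (-0.87 ± 0.08). Of 10 ribosome assembly genes 7 fell and 0 rose, led by the RNA helicase RH3 (-1.75 ± 0.09) and the exoribonuclease RIF10 (-1.12 ± 0.08). All 6 sigma factors, which direct the plastid-encoded RNA polymerase to promoters, fell, with a median of -1.15 and SIG4 lowest at -3.12 ± 0.13. Of 12 genes of polymerase-associated proteins 7 fell and 1 rose. edgeR called 0 of 4 core polymerase subunits and 0 of 16 ribosomal protein genes encoded in the chloroplast, with 0 and 0 at an unadjusted p under 0.05, and transcripts of the chloroplast took only 0.0202 to 0.254% of hypocotyl gene counts.

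Among 63 nuclear photosynthesis genes 56 fell and 1 rose in hypocotyl at 180 min (median -0.58). Of 6 regulators of chloroplast development 3 fell, among them GLK1, a factor that activates photosynthesis genes (-0.80 ± 0.08), and 1 rose, the GATA factor CGA1 (0.71 ± 0.13). Of the 3 phage-type RNA polymerases of the organelles RPOTm and RPOTmp rose and RPOTp fell. The family described as 40S or 60S holds only 8 genes, 5 of them pseudogenes, and 5 rose and 1 fell.

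Cell type markers moved in the same libraries. In hypocotyl at 180 min all 4 mesophyll markers fell, from a summed 22200 to 24900 CPM in high R/FR to 13700 to 13900 CPM in low R/FR. Shoot apex markers summed to 251 to 253 and 152 to 159 CPM, vascular markers to 166 to 170 and 103 to 113 CPM, guard cell markers to 18.8 to 23.4 and at most 10.2 CPM, and root markers to 14.9 to 17.4 and 12.2 to 14 CPM. Of the 4 guard cell markers 1 was called lower and 1 higher, with changes of -1.66 to 1.3. Of the 4 root markers only 1 had enough counts to be tested. Of the 4 shoot apex markers 2 were tested, and 1 of them was called lower, with changes of -0.7 and 0.12. At 90 min in hypocotyl 3 of 4 mesophyll markers were called lower, and the list summed to 16900 to 19700 CPM in high and 16300 to 16500 CPM in low R/FR. Root markers summed to 10.9 to 11.5 CPM in high and 1.72 to 2.28 CPM in low R/FR, and guard cell markers to 19.4 to 23.8 and 8.06 to 8.26 CPM. Again 1 guard cell marker was called lower and 1 higher, with changes of -1.9 to 0.97. The vascular sum was higher in low R/FR at 90 min, at 146 to 150 in high and 211 to 218 CPM in low R/FR. Only 1 of the 4 vascular markers was called higher at that time, with changes of -0.13 to 0.97 over the list. At 180 min 3 of the 4 were called lower, with changes of -0.68 to -0.32. In cotyledon at 90 min, where AT5G16200 rose, guard cell markers summed to 114 to 135 and 308 to 332 CPM. Of these 4 markers only 1 was called higher, and the changes ran from -0.24 to 2.12 with a median of -0.148. In bulk organs fewer cells of a type and less RNA per cell cannot be told apart, and the part of these markers in the changes of the 6 genes was not tested. The fall of AT5G24490 also stood against PSRP5 within the same library: there were 65.6 and 67.2 AT5G24490 counts per 100 PSRP5 counts in high R/FR and 26 and 21.9 in low R/FR.

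**Figure D3:**
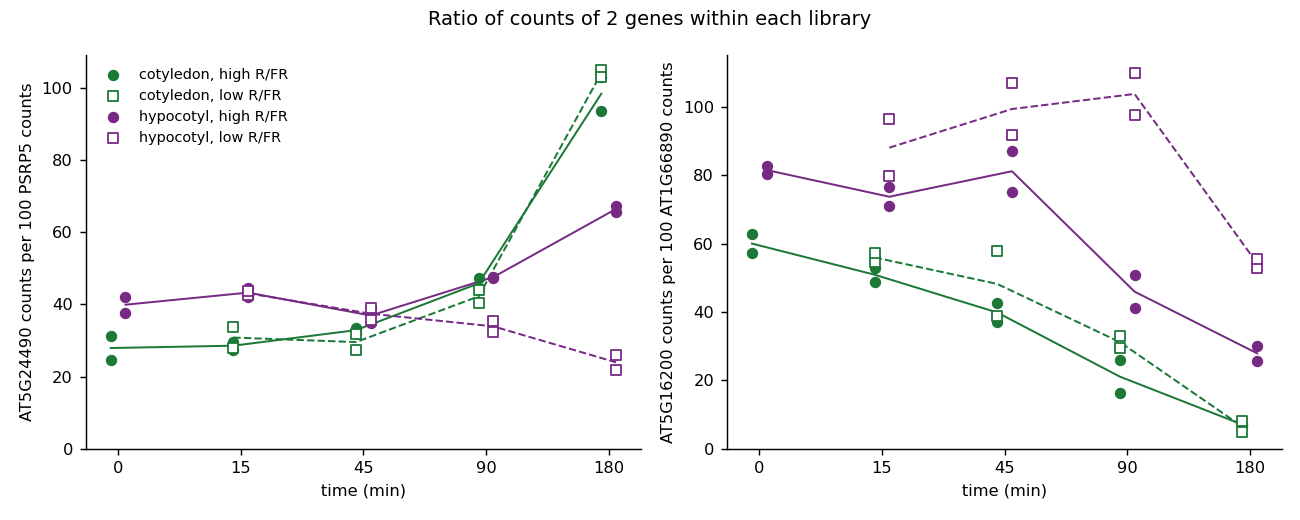
Left, AT5G24490 counts per 100 PSRP5 counts and, right, AT5G16200 counts per 100 AT1G66890 counts in each library against time in min (times equally spaced; green cotyledon, purple hypocotyl, filled high R/FR, open low R/FR, lines through means of 2 libraries). The left ratio rises to 93.6 to 105 in cotyledon in both lights and falls to 21.9 to 26 in low R/FR hypocotyl, and the right ratio falls to 4.8 to 8.1 in cotyledon.

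In seedlings that stayed in high R/FR, AT5G24490, AT1G66890 and AT5G16200 changed with time. This comparison uses the same 180 min high R/FR libraries as the light comparison, so the values are given side by side. In cotyledon AT5G24490 stood at 145 and 161 CPM at 0 min, 164 and 174 at 15 min, 196 and 189 at 45 min, 238 and 236 at 90 min and 500 and 542 at 180 min. No later group overlapped the 0 min group, and from 0 to 180 min the gene rose 3.41-fold (1.77 ± 0.08, adjusted p = 3.28e-17). In hypocotyl it stood at 70 and 69.7 CPM at 0 min, passed through 64.2 to 82 CPM and reached 116 and 114 CPM at 180 min (0.72 ± 0.08, adjusted p = 1.14e-08). The rise was smaller in hypocotyl by 1.05 ± 0.11 (adjusted p = 1.94e-08).

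AT1G66890 rose alongside it. Its cotyledon levels were 7.01 and 6.58 CPM at 0 min, 9.27 and 8.73 at 15 min, 10.8 and 10.2 at 45 min, 12.8 and 15.8 at 90 min and 22.7 and 27.5 at 180 min. No 2 consecutive times overlapped, and the rise from 0 to 180 min was 3.69-fold (1.88 ± 0.14, adjusted p = 2.62e-12). In hypocotyl it stood at 6.09 and 5.62 CPM at 0 min and 9.39 and 9.26 CPM at 180 min (0.67 ± 0.14, adjusted p = 0.000287), a rise that was smaller by 1.21 ± 0.20 (adjusted p = 2.54e-05).

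AT5G16200 fell over the same time. In high R/FR cotyledon it went from 4.02 and 4.13 CPM at 0 min to 1.54 and 2.02 CPM at 180 min, 2.27-fold lower (-1.18 ± 0.26, adjusted p = 0.000242). In hypocotyl it went from 4.9 and 4.64 to 2.42 and 2.78 CPM (-0.87 ± 0.22, adjusted p = 0.0016). The groups did not overlap in either organ, and the difference between organs, 0.31 ± 0.34, missed the threshold (adjusted p = 0.522). Its counts per 100 AT1G66890 counts went from 57.2 and 62.8 to 6.8 and 7.34 in cotyledon and from 80.4 and 82.6 to 30 and 25.8 in hypocotyl.

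PRPS20, PSRP5 and PSRP6 changed by -0.06 to 0.13 from 0 to 180 min in the organs, and none passed the threshold. Thus 2 of 6 genes were called higher and 1 lower in each organ, where 32.1 and 23.5% of all genes were in cotyledon and 22 and 22.9% in hypocotyl. The difference between organs was called lower for 2 of 6 (19.9% of all genes). Of the 34 other nuclear plastid ribosomal genes 1 rose and 2 fell in cotyledon (range -0.33 to 0.23), and 6 rose and 1 fell in hypocotyl (range -0.29 to 0.29). In both organs AT5G24490 and AT1G66890 lay above all 34 and AT5G16200 below all 34.

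Markers of cell types also differed between 0 and 180 min in high R/FR. In cotyledon 3 of 4 mesophyll markers rose, from a summed 74200 to 76900 CPM to at least 97300 CPM, and 2 of 4 guard cell markers rose, with sums of 86.3 to 94.8 CPM at 0 min and 122 to 127 CPM at 180 min. In hypocotyl 2 of 4 mesophyll markers rose, with sums of 17500 to 18800 CPM at 0 min and 22200 to 24900 CPM at 180 min. The hypocotyl root markers summed to 3.71 to 3.72 and 14.9 to 17.4 CPM, and the shoot apex markers to 342 to 400 and 251 to 253 CPM. Their part in the changes of the 6 genes with time was not tested.

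The earlier times were compared with 0 min after the later values had been seen. In cotyledon AT5G24490 was already higher at 45 min (0.33 ± 0.08, adjusted p = 0.00334) and 90 min (0.63 ± 0.08, adjusted p = 1.38e-07). The 45 min call was lost without 0 min replicate 1 (0.25, adjusted p = 0.0976). AT1G66890 was higher by 0.63 ± 0.15 (adjusted p = 0.00425) and 1.08 ± 0.14 (adjusted p = 6.04e-07). These 2 of 6 genes stood against 8.2% of all genes called higher at 45 min and 22.5% at 90 min. In hypocotyl AT5G16200 alone was called, lower by 90 min (-0.59 ± 0.21, adjusted p = 0.0348; 14.7% of all genes). That call was lost on leaving out any 1 of the 4 libraries compared (adjusted p = 0.0579 to 0.165) and with library totals (0.0579).

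**Figure D4:**
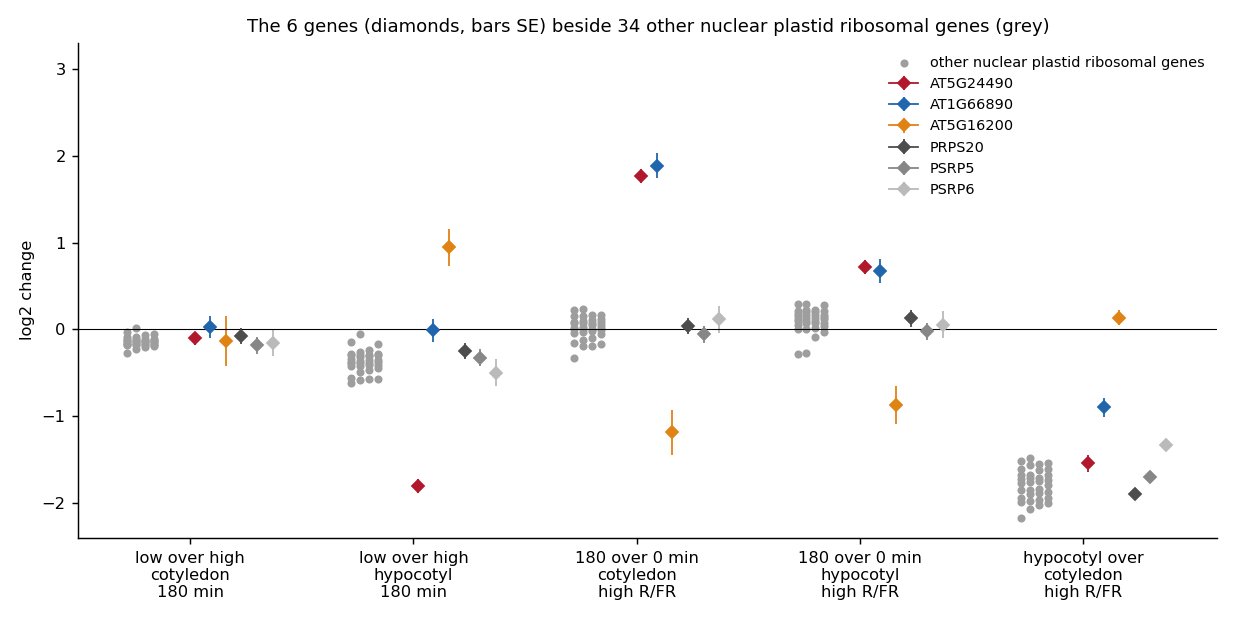
Log2 change of the 6 genes (coloured diamonds, bars SE) and of 34 other nuclear genes of the plastid ribosome (grey points) in 5 comparisons named on the horizontal axis. In the hypocotyl at 180 min AT5G24490 lies at -1.80 below a grey range of -0.62 to -0.05, and in both time comparisons AT5G24490 and AT1G66890 lie above and AT5G16200 below the grey points.

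In high R/FR, 5 of the 6 genes were lower in hypocotyl than in cotyledon, where 39.5% of all genes were called lower. PRPS20 stood at 376 to 450 CPM (median 406) over the 10 cotyledon libraries and 102 to 125 CPM (median 115) over the 10 hypocotyl libraries. PSRP5 stood at 500 to 607 CPM (median 549.7) and 153 to 190 CPM (median 173), and PSRP6 at 169 to 222 (median 193) and 67.3 to 90.9 CPM (median 81.6). None of these 3 overlapped between the organs, and they were lower in hypocotyl by 1.89 ± 0.05, 1.70 ± 0.04 and 1.33 ± 0.07 on the log2 scale (adjusted p = 3.82e-17, 2.62e-17 and 6.71e-13).

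AT5G24490 stood at 145 to 542 CPM in cotyledon and 64.2 to 116 CPM in hypocotyl, without overlap, and differed by -1.54 ± 0.09 (adjusted p = 1.71e-11). AT1G66890 differed by -0.90 ± 0.11 (adjusted p = 2.78e-07), although its ranges of 6.58 to 27.5 and 4.66 to 9.39 CPM overlapped. The model holds 1 organ difference for all times, whereas the gap of AT5G24490 and AT1G66890 grew with time. Mean levels of AT1G66890 in cotyledon and hypocotyl were 6.8 and 5.85 CPM at 0 min and 25.1 and 9.3 CPM at 180 min. Those of AT5G24490 were 153 and 69.8 CPM at 0 min and 521 and 115 CPM at 180 min. Their organ differences are thus averages over unlike gaps. AT5G16200 overlapped between the organs, at 1.54 to 4.63 and 2.42 to 4.9 CPM, and its difference of 0.14 ± 0.08 missed the threshold (adjusted p = 0.135). All 34 other nuclear plastid ribosomal genes were lower in hypocotyl (median -1.76, range -2.17 to -1.48), as were all 15 tested ribosomal protein genes of the chloroplast (median -1.93). Over both lights, transcripts of the chloroplast took 0.0493 to 0.216% of cotyledon and 0.0202 to 0.254% of hypocotyl gene counts. That highest share was in the hypocotyl library of high R/FR at 15 min, replicate 2.

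The organ comparison rests on the scaling. With library totals in place of TMM the median of all genes moved by 0.636 towards the hypocotyl, and the 5 genes stayed lower, by 0.26 (AT1G66890, adjusted p = 0.0261) to 1.25 (PRPS20). Under that scaling AT5G16200 was called higher in hypocotyl (0.77, adjusted p = 6.63e-08). All 4 mesophyll markers were lower in hypocotyl (median -2.34), and their part in these differences was not tested.

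In the authors' deposited table the low over high R/FR change of AT5G24490 at 180 min in hypocotyl is -1.80, with the authors' adjusted p of 4.78e-13. The authors' deposited table gives AT5G16200 a change of 0.94 at that time (adjusted p 0.0054) and 1.13 at 90 min (0.0011). In the authors' deposited table the fall of PRPS20 at 180 min has an adjusted p of 0.0867 and the cotyledon rise of AT5G16200 at 90 min one of 0.0715, which are the 2 light calls made here that it places above 0.05.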

How the data were processed

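The submitters' processing notes list Bowtie, TopHat2 2.0.9, limma 3.18.2, edgeR 3.4.0, cutadapt 1.2.1 and HTSeq 0.5.4p3, with the TAIR10 build; settings and strand handling are not given in the sources used here. The authors deposited raw read counts per gene for 33602 genes and 5 summary lines, which were left out. The authors' deposited tables also hold, for each time and organ, log2 ratios of the lights and p-values with adjusted p-values, used here for descriptions, positions and the comparison that closes the report. Reads without a feature made up 0.811 to 2.89% and ambiguous reads 0.382 to 0.807% per library.

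All tests were run on the deposited counts in R 4.3.3 with edgeR 4.0.16. The filter (minimum count 10, minimum total 15) left 20126 genes. Counts were scaled by TMM (factors 0.767 to 0.854 in cotyledon, 1.185 to 1.29 in hypocotyl) and fitted with a robust quasi-likelihood model of 18 group means over 36 libraries, with 18 residual degrees of freedom. For hypocotyl against cotyledon the model held terms for time and organ over the 20 libraries in high R/FR and 19514 genes. The procedure was tested on simulated data. Libraries of 1 group differed beyond sampling noise (chi-square of 3.76 to 20.8 per degree of freedom), so no library was a copy. Gene lengths and upstream sequences came from RefSeq (TAIR10.1), whose gene positions overlapped the authors' for 20481 of 20481 genes.

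The 6 genes and the lists were chosen with earlier results of these data known. Every gene of the set was described; from each other list the called genes with the smallest p were named. Alternatives were RLE size factors, library totals, no filter, no organelle-encoded genes, the replicate number as a block, each organ's own 18 libraries, limma-voom (limma 3.58.1), DESeq2 1.42.0 and leaving out each library.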

Additional observations from a re-analysis of the deposited data

Results flagged for a closer look

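The response to low R/FR at 180 min differed between the organs for 2 of the 6 genes, by a test of the difference itself. In that test 1 was called lower, where 22.8% of all tested genes were, and 1 higher, where 23.7% were. For AT5G24490 the hypocotyl response minus the cotyledon response was -1.699 on the log2 scale, and for AT5G16200 it was 1.081. The call of AT5G16200 was lost with the plate replicate block (0.779, adjusted p = 0.303) and without any 1 of 4 libraries (adjusted p = 0.0788 to 0.117). The change from 0 to 180 min in high R/FR also differed between the organs for 2 genes, by -1.212 for AT1G66890 and by -1.05 for AT5G24490, hypocotyl minus cotyledon. Both were called lower, as were 19.9% of all tested genes. The light and time differences share the 180 min high R/FR libraries. With the plate replicate block the light differences at 180 min rest on 1 pair of libraries per light, as the organs shared only 1 replicate number in each.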

How the results depend on the processing

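Over the alternatives other than leaving out a library, 274 changes of single genes kept their direction and their side of the threshold, 12 newly passed it, 2 lost it and none turned. The difference between the organs' light responses at 90 min called 1 gene, AT5G24490, in place of 0 with RLE size factors, library totals, no filter, the replicate block, the plate replicate block (time, light and replicate number shared by the organs), limma-voom and DESeq2, and 0 to 1 on leaving out a library. At 180 min this difference called 1 gene in place of 2 with the plate replicate block, under which AT5G16200 came to 0.779 (adjusted p = 0.303), 3 genes with no filter, which added PRPS20 (-0.303, adjusted p = 0.0484), 3 with the replicate block, which added PSRP6 (-0.422, adjusted p = 0.0327), and 1 to 3 on leaving out a library. On leaving out a library, cotyledon at 45 min gave 0 to 2 calls of light response and at 90 min 0 to 1. In high R/FR cotyledon at 45 over 0 min gave 1 to 2 calls, and hypocotyl at 90 over 0 min 0 to 1. Without 1 of the low R/FR cotyledon libraries at 45 min the light response of PSRP5 ran from -0.088 to 0.325 and that of AT5G16200 from -0.349 to 0.804. The cause of these shifts was not tested.

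The labels do not say whether a replicate number marks a shared plate. At 180 min the organs shared only 1 number per light, so the plate replicate block there rests on 1 pair of libraries per light. Cotyledon and hypocotyl libraries with the same number deviated together at a correlation over 0.1 in 14 of 16 pairs (0.094 to 0.436), and libraries of both lights in 6 of 13 (-0.327 to 0.221). Deviations were taken from the mean of the 2 libraries of a group. Where both replicate numbers matched, the 2 pairs therefore hold the same value, so these pairs are not independent. Because not every pair passed 0.1, the block was kept as an alternative and is no part of the reported tests. With 2 libraries per group, AT5G16200 at 30 to 260 counts is the gene that depth limits most.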

Other observations

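In cotyledon at 180 min in low R/FR, where 19.5% of all genes were called in either direction, some genes that work with the plastid ribosome fell. Of 8 plastid translation factors 5 fell and 0 rose, among them the initiation factor FUG1 (-0.44 ± 0.07, edgeR adjusted p = 2.4e-05) and APG3, a peptide release factor (-0.33 ± 0.07, adjusted p = 0.00134). Of 10 ribosome assembly genes 6 fell, led by the RNA helicase RH3 (-0.60 ± 0.08, adjusted p = 2.77e-06). Of 6 sigma factor genes 4 fell, SIG6 most clearly (-0.38 ± 0.07, adjusted p = 0.00014), and of 12 genes of polymerase-associated proteins 4 fell. CGA1, a GATA factor of chloroplast development, fell in cotyledon (-0.87 ± 0.12, adjusted p = 3.1e-06) and rose in hypocotyl (0.71 ± 0.13, adjusted p = 2.43e-05). Guard cell markers in the same cotyledon libraries summed to 122 to 127 CPM in high and 187 to 192 CPM in low R/FR. Of these 4 markers 1 was called higher, with changes of -0.33 to 1.1 over the list. Their part in these falls was not tested.

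From 0 to 180 min in high R/FR cotyledon, where 32.1% of all genes were called higher and 23.5% lower, 8 of 10 ribosome assembly genes fell, RH3 by 1.04 ± 0.08 on the log2 scale (adjusted p = 1.02e-11) and the helicase RH39 by 0.88 ± 0.08 (adjusted p = 3.69e-10). Of 63 nuclear photosynthesis genes 44 rose and 5 fell over the same time.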
